A study of Mus musculus with 8 samples.

Results

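The genes described here encode the AMPA-type glutamate receptor and its main auxiliary proteins in the dorsal dentate gyrus of the mouse hippocampus. They are the 4 subunit genes Gria1, Gria2, Gria3 and Gria4 and the genes of 6 transmembrane AMPA receptor regulatory proteins (TARPs), Cacng2, Cacng3, Cacng4, Cacng5, Cacng7 and Cacng8. A probe was taken where its gene symbol in the platform annotation was a member's, and where a gene had several probes the brightest over all 8 arrays stood for it. All 10 genes were on the array, out of 19321 named genes, through 12 probes of 23473. Gria1 and Gria3 had 2 probes each. The 12 probes were all among the 21150 tested.

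The series compared 4 arrays of wild-type mice (WT) with 4 arrays of mice without Cav3.1 (Cav3.1 KO), the T-type calcium channel whose pore Cacna1g encodes. All animals were male, C57BL/6J by the labels and 8 to 12 weeks old, and no treatment is given. Details of the knockout allele are not given in the sources used here. Total RNA was amplified, labelled with Cy5 and hybridised in 1 colour. The submitters speak of slices and say nothing of separate animals, so the spread behind each p-value, between these samples alone, may be technical.

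AMPA receptors are tetramers of the GluA subunits and carry most fast excitatory transmission in the brain. GluA2, made from Gria2 and edited at its RNA, keeps calcium out of the channel, so the share of GluA2 sets calcium permeability. TARPs bind the assembled receptor, carry it to the synapse and slow its closing. They belong by sequence to the calcium channel gamma family, hence their Cacng symbols.

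None of the 10 genes passed the test between the genotypes. The differences, Cav3.1 KO minus WT on the normalised log2 scale, ran from -0.10 for Gria2 to 0.13 for Gria4. Adjusted p-values ran from 0.239 to 0.9999 (limma, Benjamini-Hochberg over all tested probes). Of all tested probes 0.288% passed, 0.199% higher and 0.0898% lower in Cav3.1 KO, so a count of 0 among 10 is near that background. At an unadjusted p under 0.05 there was 1 member, Gria4, which was higher, against 8.1% of all probes, 3.76% of them higher. Of the 10, 7 were lower and 3 higher by sign, where 50.7% of all probes were lower. Over the 10 members the median was -0.03, and over all probes -0.00078. The 95% intervals of the 10 differences, taken gene by gene, lay between -0.37 and 0.21, that is between 0.774-fold and 1.16-fold. A difference that misses the threshold does not show equal levels, and for the dim probes named below these folds are compressed by the offset of 50 in the background correction. With the mean blank spot subtracted instead, the intervals lay between 0.715-fold and 1.36-fold.

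**Figure D1:**
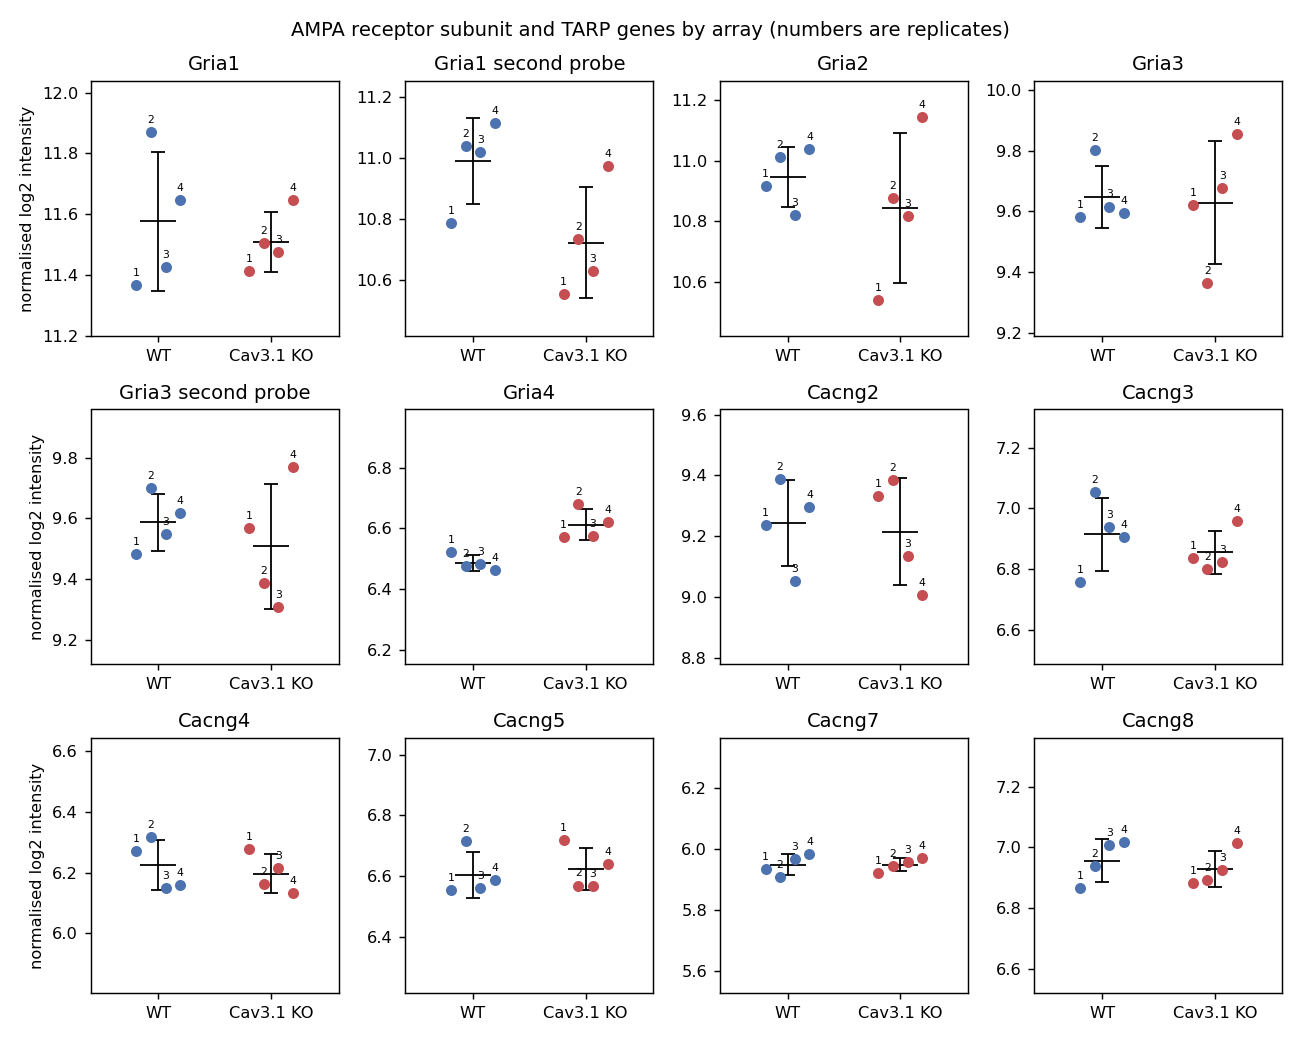
Normalised log2 intensity (vertical axis, every panel spans the same width) of the 12 member probes on each of the 4 WT and 4 Cav3.1 KO arrays. Points are arrays numbered by replicate, and bars are the mean ± SD; the groups are apart only for Gria4, by 0.13, and the second Gria1 probe is lower by 0.27 with overlap.

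Mean blank spots ran from 53.0 to 63.4, and 85.4% to 93.0% of probes were detected on an array. Any pair of arrays correlated with r of 0.991 to 0.997 over the tested probes. The headers' straight lines between scan gains fell in 2 sets. The slope of the second gain on the first was 0.478 to 0.480 for WT replicates 1, 2 and 4 and Cav3.1 KO replicate 1, and 0.485 to 0.486 for WT replicate 3 and Cav3.1 KO replicates 2, 3 and 4. The blank level split the same way, so it leaned with genotype. Mean blank spots were 53.0 to 56.2 in the set of lower slopes and 59.7 to 63.4 in the other. Array serial numbers also fell in 2 sets, with 1 array of each genotype, WT replicate 3 and Cav3.1 KO replicate 4, in the later one. Probes for all 10 granule neuron markers examined were detected on all 8 arrays, although that of Prox1, the defining transcription factor, was only 1.14 to 1.27 times the blank level. Of these markers 5, or 50%, had an unadjusted p under 0.05, 4 of them lower, against 8.1% of all tested probes. The secreted C1q-like gene C1ql2 was the 1 called, at -0.57, where 0.288% of all tested probes were called. The mean of this list lay between 7.39 and 7.51 on WT arrays and between 7.27 and 7.43 on Cav3.1 KO arrays. Of 13 thalamus and habenula markers 0 were called by limma and 1 had an unadjusted p under 0.05. Their mean was highest in Cav3.1 KO replicates 2 and 3, at 7.86 each, while replicates 1 and 4 gave 6.98 and 6.99 and WT arrays lay between 6.82 and 7.38. The probe for Cacna1g itself had a WT mean of 6.54 ± 0.0814 and a Cav3.1 KO mean of 6.46 ± 0.0716 (SD, n = 4 each), which did not pass the test (limma adjusted p 0.816, exact permutation p 0.171). This probe was dim, at 1.53 to 1.95 times the mean blank spot, and differed by -0.20 after subtraction of the blank level. Where it lies relative to the deletion is unknown here as well, so it does not check the genotype.

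Levels of different probes cannot be set against each other, since each binds with its own strength. Each gene is therefore given against the blank spots of its own arrays. The subunit genes Gria1, Gria2 and Gria3 and the TARP gene Cacng2 were far above blank on every array. Gria1 was 39.7 to 70.4 times the mean blank spot, Gria2 22.0 to 40.7 times, Gria3 10.9 to 18.1 times and Cacng2 8.78 to 13.6 times. The other members were dim, though above the 95th percentile of blank spots on 8 of 8 arrays. Cacng8 was 1.96 to 2.48 times the mean blank spot, Cacng3 1.91 to 2.70 times, Cacng5 1.69 to 2.11 times, Gria4 1.56 to 1.82 times, Cacng4 1.28 to 1.57 times and Cacng7 1.12 to 1.18 times. For these 6 a low reading can come from little RNA or from a weak probe, and these cannot be told apart here.

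Gria1 encodes GluA1, the subunit whose phosphorylation and insertion at synapses accompany long-term potentiation. Its brighter probe read 11.37, 11.87, 11.42 and 11.65 in WT replicates 1 to 4 and 11.41, 11.51, 11.48 and 11.65 in Cav3.1 KO replicates 1 to 4. All Cav3.1 KO values lay within the WT range. The means were 11.58 ± 0.229 (SD, n = 4) and 11.51 ± 0.0988 (SD, n = 4), a difference of -0.07 (SE 0.109, limma adjusted p 0.978). Before normalisation the spot intensities of this probe overlapped. WT spots spanned 2785 to 3776, while Cav3.1 KO spots spanned 2231 to 3108. Divided by the mean blank spot of each array, the groups were apart. They ran from 52.6 to 70.4 in WT and from 39.7 to 51.1 in Cav3.1 KO. The separation thus appeared with division by the blank level, which leaned with genotype. The part of the blank level in it was not tested.

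The second Gria1 probe gave a larger difference. It read 10.79, 11.04, 11.02 and 11.12 in WT and 10.55, 10.73, 10.63 and 10.97 in Cav3.1 KO. All 4 Cav3.1 KO arrays were below the WT mean, but Cav3.1 KO replicate 4 stood above WT replicate 1, so the groups overlapped. The difference was -0.27 (SE 0.102, 95% interval -0.50 to -0.03), with an unadjusted p of 0.0291 and an adjusted p of 0.527 by limma. Spot intensities of this probe overlapped as well, but its multiples of the mean blank spot were apart. The lowest WT multiple was 34.4 and the highest Cav3.1 KO multiple was 33.1. In the value table deposited by the authors the groups of this probe did not overlap, with a WT mean of 1351 ± 126 and a Cav3.1 KO mean of 1046 ± 99.3 (SD, n = 4 each) and a limma adjusted p of 0.433. With the gain-line sets as a block the difference was -0.33 (adjusted p 0.402), and it was -0.05 between the 2 arrays of the later serial set and -0.34 between the others. The annotation gives both Gria1 probes the same transcript accession, and where on the transcript each binds is unknown here. The second probe minus the first on the same array differed by -0.20 between genotypes, which an exact two-sided permutation test did not call (p 0.0857, n = 4 per group). For the 2 probes of Gria3 the same measure differed by -0.06 (exact permutation p 0.771). Both tests were added after the values were seen.

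Gria2 encodes GluA2, the subunit that makes the receptor nearly impermeable to calcium. Its probe read 10.92, 11.01, 10.82 and 11.04 in WT and 10.54, 10.88, 10.82 and 11.14 in Cav3.1 KO. The Cav3.1 KO group held both the lowest array, replicate 1, and the highest, replicate 4. The means were 10.95 ± 0.0989 (SD, n = 4) and 10.85 ± 0.247 (SD, n = 4), a difference of -0.10 (SE 0.116, limma adjusted p 0.962). The difference was -0.24 among the 6 arrays of the first serial set and 0.32 between the 2 of the later set. For Gria1 these values were -0.16 and 0.22 at its brighter probe, and for Gria3 they were -0.10 and 0.24 at its brighter probe. These genes took opposite signs in the serial sets, and none was called. Cacng3, Cacng5, Cacng7 and Cacng8 took opposite signs as well, while Gria4, Cacng2 and Cacng4 did not. Within the gain-line set of lower slopes, which held 1 Cav3.1 KO array, the difference was -0.45 for Gria2 (SE 0.0687, limma adjusted p 0.371) and -0.22 for Gria1 (SE 0.210, limma adjusted p 0.847). Within the other set, which held 1 WT array, it was 0.12 for each.

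Gria3, on the X chromosome, encodes GluA3, which pairs mainly with GluA2. Its brighter probe read 9.58, 9.80, 9.62 and 9.59 in WT and 9.62, 9.36, 9.68 and 9.86 in Cav3.1 KO. The Cav3.1 KO values spanned the WT range on both sides. The difference was -0.02 (SE 0.0998, limma adjusted p 0.996) at this probe and -0.08 (SE 0.0992, limma adjusted p 0.970) at the second.

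Gria4 encodes GluA4, a subunit with fast kinetics that is best known from interneurons and glial progenitors and is scarce in mature granule cells. Its probe read 6.52, 6.48, 6.48 and 6.46 in WT and 6.57, 6.68, 6.58 and 6.62 in Cav3.1 KO. Every Cav3.1 KO array was above every WT array, and 4.95% of all tested probes had groups that did not overlap, 2.42% with Cav3.1 KO higher. The means were 6.49 ± 0.0254 (SD, n = 4) and 6.61 ± 0.0502 (SD, n = 4), a difference of 0.13 (SE 0.0316, 95% interval 0.05 to 0.20). The unadjusted limma p was 0.00381 and the adjusted p 0.239, so the gene was not called. After subtraction of the mean blank spot the difference was 0.29 (SE 0.0637, limma adjusted p 0.210).

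Before normalisation the Gria4 groups were not apart. As multiples of the mean blank spot, the raw spots had a WT mean of 1.68 ± 0.0911 and a Cav3.1 KO mean of 1.73 ± 0.0793 (SD, n = 4 each), and the groups overlapped. They overlapped in the value table deposited by the authors as well, at 24.8 ± 2.16 and 29.2 ± 3.01 (SD, n = 4 each; exact permutation p 0.0571). The normalised difference was 0.11 with the gain-line sets as a block (limma adjusted p 0.381), 0.12 among the arrays of the first serial set and 0.14 between those of the later set. Without Cav3.1 KO replicates 2 and 3, where the thalamus and habenula mean was highest, the difference was 0.11 (limma adjusted p 0.417). Among 9 measured interneuron markers 0 passed the limma test, 2 had an unadjusted p under 0.05, and 7 were higher and 2 lower in Cav3.1 KO. Their mean lay between 8.44 and 8.60 on WT arrays and between 8.40 and 8.71 on Cav3.1 KO arrays. The 2 under 0.05 went opposite ways. Npy differed by -0.396 without overlap of the groups (SE 0.0787), and Pvalb by 0.253 with overlap (SE 0.104). Of 9 oligodendrocyte lineage markers 0 passed by limma, 2 had an unadjusted p under 0.05, 3 were higher and 6 lower, and their mean lay between 8.999 and 9.13 on WT arrays and between 8.83 and 9.24 on Cav3.1 KO arrays. Here too the 2 under 0.05 went opposite ways. The progenitor marker Pdgfra differed by 0.22 without overlap of the groups (SE 0.0574, limma adjusted p 0.265). Mbp differed by -0.293 with overlap (SE 0.122, limma adjusted p 0.587). Cspg4, of the same list, differed by -0.026 with overlap (SE 0.0394). Among all tested probes 8.1% had an unadjusted p under 0.05 in either direction. These lists were chosen as markers of other cells the tissue could hold, and their part in the Gria4 values was not tested. In bulk tissue, fewer cells of a type and less RNA per cell cannot be told apart.

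The upstream sequence is shown for Gria4, the only member whose normalised groups did not overlap, and for Cacng5 (the farther upstream of its 2 entries). Among the members with an entry, only Cacng5 and Cacng7 had a GC box in this window. The 2 sequences shown come from RefSeq promoters on GRCm38.p6, which held an entry for 7 of the 10 members. Each is the 250 bases before the annotated start, 5′ to 3′ on the gene's strand, and capitals mark GC boxes (GGGCGG on either strand, which overlapped none of the other motifs searched).
Gria4, chr9:4796235-4796484, minus strand: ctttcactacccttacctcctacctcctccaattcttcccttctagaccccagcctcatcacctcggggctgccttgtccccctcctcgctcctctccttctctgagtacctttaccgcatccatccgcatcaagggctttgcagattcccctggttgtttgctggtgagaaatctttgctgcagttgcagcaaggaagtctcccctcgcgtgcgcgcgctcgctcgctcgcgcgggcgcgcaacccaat
Cacng5, chr11:107915056-107915305, minus strand: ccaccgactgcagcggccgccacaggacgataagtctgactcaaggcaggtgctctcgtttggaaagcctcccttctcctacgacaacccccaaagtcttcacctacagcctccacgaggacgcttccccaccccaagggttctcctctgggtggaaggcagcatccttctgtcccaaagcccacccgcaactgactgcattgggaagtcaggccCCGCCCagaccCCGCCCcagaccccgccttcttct

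The Cacng5 window, shown because of its GC boxes, held 2, while the other Cacng5 entry and Gria4 held 0. Of 32851 RefSeq windows of this length 32.7% held at least 1. The glucocorticoid half-site AGAACA, the cAMP response element TGACGTCA and the TATA box TATAAA were searched on both strands as well. None of the 3 occurred in either window, while 16.1%, 1.55% and 12.4% of all windows held them. A match or its lack describes these letters only.

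Whether a member differed against another was read from differences on the same array. The size of such a difference depends on the probes, so what is compared is its value between genotypes. Gria2 minus Gria1 differed by -0.04 (exact permutation p 0.686) and Gria2 minus Gria3 by -0.08 (exact permutation p 0.600). Gria2 minus Gria4 was 4.39, 4.53, 4.34 and 4.58 in WT and 3.97, 4.20, 4.24 and 4.52 in Cav3.1 KO. In Cav3.1 KO 3 of 4 arrays were below every WT array, and replicate 4 was within the WT range. The genotypes differed by -0.23 (exact permutation p 0.114, n = 4 per group, Benjamini-Hochberg p 0.457 over 4 comparisons). With the mean blank spot subtracted this difference was -0.40 (exact permutation p 0.0857, adjusted over the 4 comparisons 0.343). In the value table deposited by the authors it was -0.45 (exact permutation p 0.0286, and no smaller p is possible with 4 against 4), which gave 0.114 after adjustment over the 4 comparisons. With 1 array left out at a time the normalised difference lay between -0.33 without Cav3.1 KO replicate 4, the array within the WT range (exact permutation p 0.0286, adjusted 0.114), and -0.14 without Cav3.1 KO replicate 1 (exact permutation p 0.257, adjusted 0.914). Leaving out the 1 overlapping array sets the groups apart, so that p of 0.0286 follows from the removal and is no support. The 4 comparisons had no adjusted p under 0.05 under any setting run. Among TARPs, Cacng8 minus Cacng2 differed by 0.0014 (exact permutation p 0.971).

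**Figure D2:**
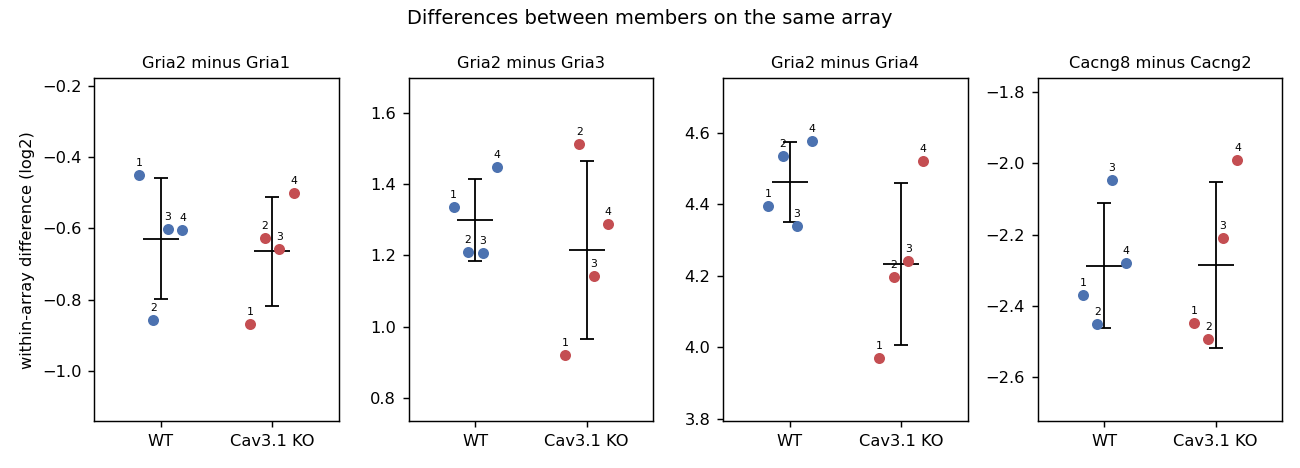
Difference between the normalised log2 values of 2 members on the same array (vertical axis), for the 4 comparisons in WT and Cav3.1 KO, with points numbered by replicate and bars as mean ± SD. The Gria2 minus Gria4 values of Cav3.1 KO replicates 1, 2 and 3 lie below all WT values, and no comparison passed its test.

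Cacng2 encodes stargazin, the first TARP described, whose loss in the stargazer mouse abolishes synaptic AMPA currents in cerebellar granule cells. Its probe, the only bright one among the TARPs, read 9.24, 9.39, 9.05 and 9.30 in WT and 9.33, 9.39, 9.13 and 9.01 in Cav3.1 KO. The groups covered nearly the same range. The difference was -0.03 (SE 0.0993, limma adjusted p 0.995).

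Cacng8 encodes TARP gamma-8, the form most typical of hippocampus. Its probe read 6.86, 6.94, 7.01 and 7.02 in WT and 6.88, 6.89, 6.92 and 7.01 in Cav3.1 KO, all within the WT range. The difference was -0.03 (SE 0.0447, limma adjusted p 0.978), or -0.05 after subtraction of the blank level (SE 0.0796). Cacng3, the TARP gamma-3 of forebrain neurons, lay between 6.76 and 7.05 in WT, and between 6.80 and 6.96 in the knockout. It differed by -0.06 (SE 0.0635, limma adjusted p 0.956). Cacng4, TARP gamma-4, which is prominent in development and in glia, lay between 6.15 and 6.32 in WT, and between 6.13 and 6.28 in the knockout, and differed by -0.03 (SE 0.0492). The groups of these 3 genes overlapped almost wholly.

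Cacng5 and Cacng7 encode the type II TARPs gamma-5 and gamma-7, which modulate the channel and are weaker in trafficking. Cacng5 lay between 6.55 and 6.72 in WT, and between 6.57 and 6.72 in the knockout, and differed by 0.02 (SE 0.049, limma adjusted p 0.993). Cacng7, the member closest to blank, lay between 5.91 and 5.98 in WT, and between 5.92 and 5.97 in the knockout, and differed by 0.00014 (SE 0.0268). On the blank-subtracted scale its 95% interval was -0.30 to 0.32, several times wider than the -0.06 to 0.06 of the normalised scale. For Cacng4 the blank-subtracted interval was -0.48 to 0.30.

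**Figure D3:**
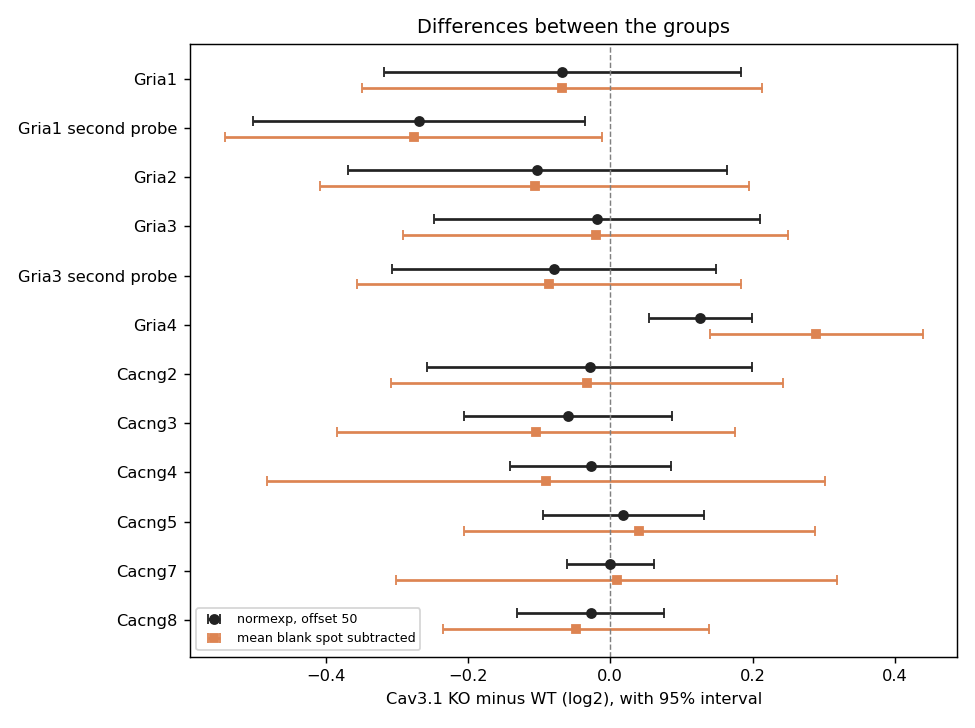
Cav3.1 KO minus WT on the log2 scale (horizontal axis) with 95% intervals for the 12 member probes, after normexp with an offset of 50 (circles) and after subtraction of the mean blank spot (squares). The intervals of Gria4 and of the second Gria1 probe lie on one side of 0 before adjustment over all probes, and those of the dim Cacng4 and Cacng7 widen most when blanks are subtracted.

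Several members lie side by side in the genome. In RefSeq (GRCm38.p6, used here for names and neighbours only) Cacng7, Cacng8 and Cacng6 are consecutive protein-coding genes, and so are Cacng1, Cacng4 and Cacng5. The latter group and Gria1 share the chromosome of Cacna1g. Cacng1 and Cacng6 encode muscle-type gamma subunits that are not TARPs and served for comparison. The Cacng1 probe was 1.13 to 1.21 times the blank level and differed by 0.06 (SE 0.0256, limma adjusted p 0.565), without overlap of the groups. Cacng6 was detected on 5 of 8 arrays and differed by -0.01 (SE 0.0353, limma adjusted p 0.994). With group means subtracted, 23 of the 45 member pairs correlated above 0 over the 8 arrays and 22 below 0. The lowest values were -0.91 for Cacng4 and Cacng7, -0.76 for Cacng4 and Cacng8 and -0.61 for Cacng2 and Cacng7. The highest were 0.82 for Gria1 and Cacng3, 0.76 for Cacng7 and Cacng8 and 0.71 for Gria3 and Cacng3. Each of these pairs held a dim member. Cacng4 and Cacng7 were the dimmest, at 1.28 to 1.57 and 1.12 to 1.18 times the mean blank spot. The correlations rest on 8 arrays, on each of which all probes share labelling and brightness, and are descriptions only.

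Measured the same way, the genes closest to each bright member were Polr2b and Cpne6 for Gria1 (r 0.965 each), Slmap (0.978) and Rfxap (0.973) for Gria2, Pcgf3 (0.976) and Pik3cg (0.970) for Gria3, and Adgra1 (0.983) and Gata5 (0.978) for Cacng2. Among dim members they were Ajm1 (0.978) and Cdkn1a (0.967) for Gria4, Slc3a1 (0.990) and Zhx3 (0.988) for Cacng3, and Ankrd61 (0.981) and Tacr3 (0.968) for Cacng4. For Cacng5 they were Rrp1 (0.995) and 9530027J09Rik (0.990), for Cacng7 Sec1 (0.994) and Snx10 (0.992), and for Cacng8 Olfr1118 (0.978) and Ubn1 (0.973). Each is among the highest of 21149 correlations over 8 values.

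Other proteins that assemble, anchor or move AMPA receptors were read from a list of 50 genes, of which 49 were measured. Of these 0 passed the test over all probes by limma, 22 were higher and 27 lower in Cav3.1 KO, and the median difference was -0.03 against -0.00078 for all probes. At an unadjusted p under 0.05 there were 6, or 12.2%, and 5 of the 6 were lower. Of all tested probes 8.1% were under it, made up of 3.76% that were higher and the remainder, which were lower. The groups did not overlap for 2 of the 49, against 4.95% of all tested probes.

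The 4 with the smallest p were all lower. Nptx1 encodes the secreted pentraxin NP1, which clusters AMPA receptors. Its WT mean was 9.08 ± 0.129 and its Cav3.1 KO mean 8.77 ± 0.081 (SD, n = 4 each), with no overlap, and it differed by -0.31 (SE 0.0685, limma adjusted p 0.166). Olfm1, the secreted glycoprotein noelin-1 found in receptor complexes, differed by -0.28 (SE 0.0804, limma adjusted p 0.331). Frrs1l, an assembly factor of the endoplasmic reticulum that receptors pass before they meet TARPs, gave 7.22 ± 0.0897 and 6.97 ± 0.132 (SD, n = 4 each), also with no overlap. Its difference was -0.24 (SE 0.0715, limma adjusted p 0.336). Camk2a, the kinase that phosphorylates GluA1 and TARPs, differed by -0.30 (SE 0.09, limma adjusted p 0.359). Among other auxiliary subunits, named after their values were seen, the cornichon genes Cnih2 and Cnih3 differed by -0.22 (SE 0.106) and 0.09 (SE 0.123), and Shisa9 by -0.04 (SE 0.0596). Adarb1, the enzyme that edits the Gria2 transcript, differed by 0.22 (SE 0.167, limma adjusted p 0.887). None of these was past the threshold.

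**Figure D4:**
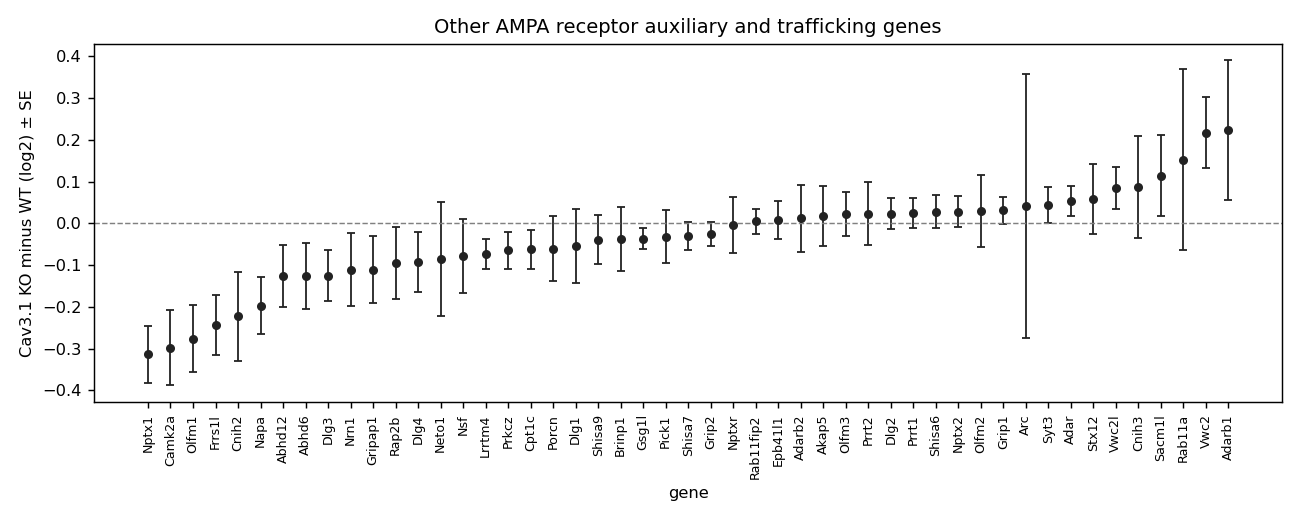
Cav3.1 KO minus WT on the log2 scale (vertical axis, ± SE) for the 49 measured genes of the list of other AMPA receptor auxiliary and trafficking genes (horizontal axis), in order of the difference. Nptx1 is lowest at -0.31 and Adarb1 highest at 0.22, and 0 of the 49 passed the test.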

How the data were processed

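Scanner output of 8 single-colour TORAY arrays gave a spot intensity, deposited without normalisation per the file headers. The way its 3 scan gains were merged was not given in the sources used here. Normexp ran on spot values alone, without the files' other intensity column, whose meaning is unstated. The value table deposited by the authors holds linear intensity with a median of 25 on each array, 0 near the mean blank spot and dim probes empty. Normexp (offset 50) was fitted to all 27456 spots, and log2 values of 23473 probes were quantile normalised. Probes above the 95th percentile of the 2736 blank spots on at least 4 arrays were kept, without 84 with a spot marked not good, leaving 21150. Genotypes were tested by limma 3.58.1 (R 4.3.3), tested on simulated data, with a threshold of 0.05 on Benjamini-Hochberg adjusted p. Single values used exact two-sided permutation tests over 70 arrangements of the 8 arrays, and over fewer where an array was left out or replicates were blocked. Of all probes 20690 had 1 gene symbol, 0 several, and 2783 none. Array number limits precision, and the offset understates dim genes.

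The members, gene lists and alternatives were chosen with earlier results of these data known. The rule named all 10 members, Cacna1g, Cacng1 and Cacng6, the 4 list genes with the smallest p, and the 2 closest patterns per member. The lists of other cells held 9 measured microglia markers (0 called by limma, 2 at an unadjusted p under 0.05, 9 lower), 10 endothelial (1 called, lower), 10 astrocyte (1 called, higher), 11 of pyramidal and mossy cells (1 called, lower) and 8 of choroid plexus and ependyma (0 called by limma, 0 at an unadjusted p under 0.05). At an unadjusted p under 0.05 there were 3 endothelial markers, all lower, and 1 astrocyte marker, higher. Pyramidal and mossy cell markers under it were 3, of which 2 were lower. The share of all tested probes was 8.1% under it and 0.288% called. The choroid plexus and ependyma markers varied widely between arrays. Their mean lay between 7.17 and 8.32 on WT arrays and between 6.27 and 8.30 on Cav3.1 KO arrays, lowest on Cav3.1 KO replicate 4. The probe of Ttr ran from 3.12 to 783 times the mean blank spot. The part of this variation in the member values was not tested.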

Additional observations from a re-analysis of the deposited data

Results flagged for a closer look

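Of 32 groups of 4 values examined (12 member probes and 4 within-array differences in each genotype), 1 held an array far from the rest, where chance flags about 1 in 20. Gria3 in WT read 9.80 on replicate 2 against 9.58, 9.62 and 9.59 on the other 3 arrays.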

How the results depend on the processing

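No member passed the threshold under any of the 23 alternatives run, where the lowest adjusted p of a member was 0.210, and Gria4, Cacng3 and Cacng8 kept their sign in all of them. The number of all probes called was 61 (42 higher, 19 lower). It was 40 with blank spots subtracted, 110 with 75th percentile scaling (62 higher, 48 lower), 34 in the authors' value table, 7 in the first serial set, 8 with the replicate block, 17 without Cav3.1 KO replicates 2 and 3, 23 with the gain line as a block and 0 within either gain-line set, where a genotype had 1 array. Same-numbered arrays did not deviate together (r -0.11, -0.08, -0.08 and 0.01), so the block is no pairing. Leaving out each array gave 16 to 49 calls. Signs turned as follows, and the cause was not tested. With the gain line as a block, an alternative chosen after seeing the data, Cacng2 differed by 0.074, Cacng4 by 0.024 and Cacng7 by -0.015. Within the set of lower slopes they differed by 0.026, 0.029 and -0.021, and Gria1 and Gria2 kept their sign at -0.22 and -0.45. Within the set of higher slopes the values were 0.12 for Gria1, 0.12 for Gria2, 0.016 for Gria3, 0.12 for Cacng2, 0.019 for Cacng4 and -0.0097 for Cacng7. Cacng4 was at 0.0080 with 75th percentile scaling. Cacng5 and Cacng7 were at -0.015 and -0.051 in the authors' value table and at -0.00083 and -0.00085 in the first serial set. Without Cav3.1 KO replicates 2 and 3, Gria3 was at 0.090 and Cacng7 at -0.0025. Cacng8 minus Cacng2 was at -0.016 with blank spots subtracted and -0.010 in the authors' value table, where Gria2 minus Gria4 was at -0.45 (exact permutation p 0.0286, adjusted over 4 comparisons 0.114). With 1 array left out at a time, the ranges were -0.14 to 0.030 for Gria1, -0.20 to -0.0016 for Gria2, -0.094 to 0.070 for Gria3, 0.10 to 0.14 for Gria4, -0.092 to 0.041 for Cacng2, -0.11 to -0.014 for Cacng3, -0.055 to 0.0033 for Cacng4, -0.013 to 0.056 for Cacng5, -0.013 to 0.012 for Cacng7 and -0.058 to -0.0077 for Cacng8. For the within-array differences they were -0.11 to 0.033 for Gria2 minus Gria1, -0.18 to 0.014 for Gria2 minus Gria3, -0.33 to -0.14 for Gria2 minus Gria4 and -0.097 to 0.082 for Cacng8 minus Cacng2. Low signal over background limits Gria4 and all TARPs but Cacng2.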
